A study of Rattus norvegicus with 24 samples.

Results

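The longer course of either volatile anaesthetic was compared with control in whole rat brain. The comparison used 18 of the 24 arrays of the series, namely the 6 arrays whose titles gave 10 exposures (3 of halothane and 3 of isoflurane, each agent weighted equally) and all 12 arrays titled as controls, and it was read over 7389 probe sets. Each day held 2 exposures of 90 min, parted by 3 h of recovery, to 0.8% halothane or to 1.0% isoflurane, so that 10 exposures took 5 days. Controls were not free of anaesthetic, since they had 3 min of halothane before they were perfused with ice-cold saline. The 6 arrays with 5 exposures over 2.5 days (3 per agent) serve as the shorter course. The labels give no strain, no age, no sham exposure and no time between the last exposure and collection, and they do not say that replicates were separate animals. The p-values therefore rest on sample-to-sample spread that may be technical.

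Halothane and isoflurane are halogenated inhaled agents that enhance inhibitory GABA-A and glycine receptors, open background potassium channels and dampen excitatory transmission. Neuronal firing drives immediate early transcription factors such as Fos, Junb and Egr1, and later secreted proteins such as Vgf and Bdnf, through calcium signalling and the factor CREB, which binds the cAMP response element. Halothane is also oxidised by liver enzymes and isoflurane hardly at all, and genes of haem synthesis, glutathione synthesis and sulfation are known for their responses to foreign compounds.

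The deposited scaling left the arrays alike, with trimmed mean signals of 150.1 to 150.2 and correlations between arrays of 0.931 to 0.978. Bacterial spike-in probe sets set 9 arrays of high level (replicate 3 in each exposed group, and 5 controls) apart from 15 of low level. The ratio of 3' to 5' signal of actin, a sign of RNA quality, was 1.36 to 2.10 in control and 1.60 to 2.14 after 10 exposures. Markers fitted the tissue label, with control signals of 1943 to 3693 for the neuronal gene Snap25, 3981 to 6224 for the myelin gene Mbp and 2269 to 3952 for the choroid plexus gene Ttr, against 6.3 to 44.7 for the pituitary hormone Prl. Gfap is not analysed here.

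Few transcripts passed the test, and their changes were small. Of 7389 probe sets 9 passed an adjusted p of 0.05 in limma (0.122%), of which 4 rose (0.0541%) and 5 fell (0.0677%), with log2 fold changes between 0.39 and 1.29 in size. Alas1, Gclm and Igf2r rose, and the other count is an unnamed probe set whose controls all lay at the floor. Vgf, Slit1, Fut1, Hspb1 and Sult1c3 fell. The unadjusted p was under 0.05 for 935 probe sets (12.7%), 431 higher and 504 lower, and the median 95% interval reached 0.32 to either side on the log2 scale. Quantile normalization gave 17 calls (10 up and 7 down) and median centring 7 (6 up and 1 down), so the balance of rises and falls depended on the scaling.

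Many of these calls were lost with 1 array left out. Without halothane 10-exposure replicate 2 the count was 0. Without isoflurane 10-exposure replicate 1 only the unnamed probe set was kept of the 9, and without control 2, 4 or 9 only that probe set and Alas1. Without halothane 10-exposure replicate 1 or 3 the count was 4, and without control 11 it was 5. It was 21 without control 3, 15 without control 7 and 27 without isoflurane 10-exposure replicate 2. Without isoflurane 10-exposure replicate 3, 4 of the 9 were kept, all of them rises. All 9 kept their direction in every setting tried. On the 15 low spike-in arrays alone only Sult1c3 passed, with log2 fold changes of 0.83 for Alas1, 1.29 for Igf2r and -0.49 for Vgf on those arrays. In a fit blocked on spike-in level there were 39 calls, among them all 9.

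**Figure D1:**
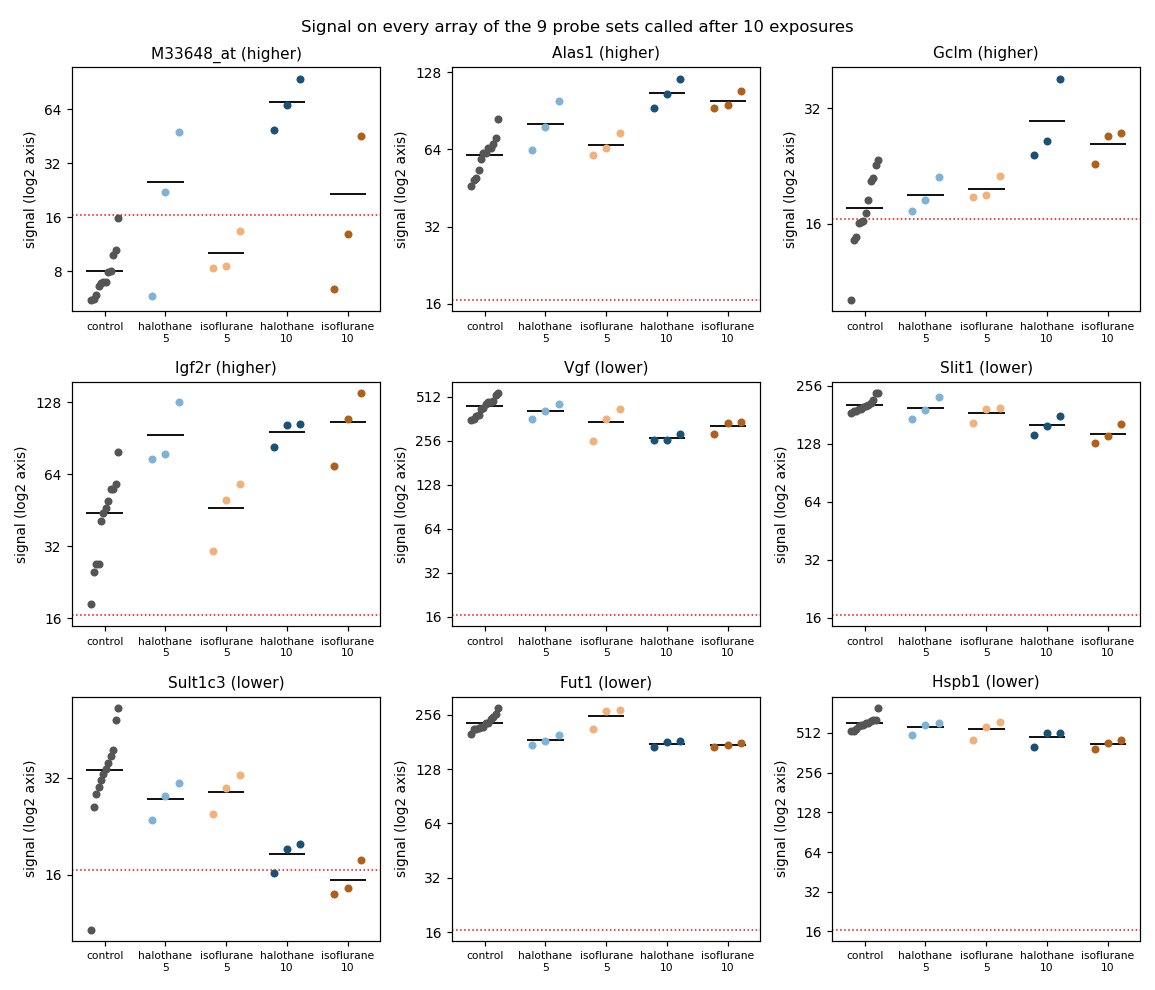
Deposited signal on every array for the 9 probe sets that passed the test, on a log2 axis; each point is an array, the black line is the group mean and the dotted red line the floor of 16.5. Alas1 lies above every control, and Vgf, Slit1, Fut1 and Hspb1 below every control, on all 6 arrays with 10 exposures; the other 4 overlap the controls on at least 1 array.

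Alas1 encodes the rate-limiting enzyme of haem synthesis. Its signal (J03190_at) in the 12 controls had a lowest value of 46.1, a median of 61.9 and a highest of 83.9. It was 120.8, 105.5 and 92.5 after 10 halothane exposures and 94.9, 107.9 and 92.4 after 10 isoflurane exposures. All 6 exposed arrays thus lay above every control. The log2 fold change was 0.76 ± 0.13 (SE, adjusted p = 0.0261), that of halothane alone 0.81 and that of isoflurane alone 0.71. Another Alas1 probe set gave -0.06, so the probe sets of this gene disagreed.

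Igf2r encodes the receptor that carries lysosomal enzymes and takes up insulin-like growth factor II. Control signals (U59809_s_at) ran from 18.4 through a median of 45.4 to 79.2, against 102.7, 103.6 and 83.3 after halothane and 108.8, 140.0 and 69.7 after isoflurane. Only replicate 3 of isoflurane lay within the control range. The change of 1.29 ± 0.26 (SE, adjusted p = 0.0421) was the largest of the 9. It passed in only 8 of 24 fits with an array left out. Besides the arrays named above, the call was lost without control 1, 5 or 12, without isoflurane 10-exposure replicate 2, and without replicate 2 or 3 of the 5-exposure halothane group or 1 or 2 of the 5-exposure isoflurane group.

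Gclm encodes the modifier subunit of glutamate cysteine ligase, which makes glutathione. Its control signals (rc_AI233261_i_at) were 10.1 at the lowest, 16.7 at the median and 23.5 at the highest, and 6 of 12 controls lay at or below the floor of 16.5, under which values were set to the floor. The exposed arrays read 38.2, 26.3 and 24.1 with halothane and 27.5, 27 and 22.9 with isoflurane. All but the last lay above every control. The log2 fold change was 0.57 ± 0.11 (SE, adjusted p = 0.0297), while the other Gclm probe sets gave -0.07 and 0.06. Nfe2l2, the transcription factor that binds the antioxidant response element and drives Gclm, had a value of 0.86 that did not pass (adjusted p = 0.0734), with control signals up to 55.2 against 61.1, 58.7 and 64.3 after halothane and 43.7, 44.7 and 67.9 after isoflurane.

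The Gclm promoter is shown because it holds the letters of that element. The 250 bases before the start, from RefSeq (GRCr8, plus strand, chr2:213031885-213032134), carry TGACNNNGC on the opposite strand, in capitals here, 172 to 164 bases before the start.
Gclm: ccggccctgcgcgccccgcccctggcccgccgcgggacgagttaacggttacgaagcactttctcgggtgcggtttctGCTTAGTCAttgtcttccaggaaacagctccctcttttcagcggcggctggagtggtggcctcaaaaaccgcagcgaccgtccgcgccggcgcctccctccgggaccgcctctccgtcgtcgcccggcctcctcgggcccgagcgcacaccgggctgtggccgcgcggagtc
The motif was chosen after the values were seen, and both strands were searched. It is in 10.2% of the 27457 promoters of the same length and in 5 of 22 promoters of the antioxidant defence list (22.7%), which is a description of letters and not of binding. Of the 9 called probe sets 6 had a promoter sequence, and 2 of these held it, Gclm and Vgf, of which Vgf fell. The promoter of Alas1, which rose, held 0 copies.

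The unnamed probe set M33648_at was counted among the rises, and its signal was higher mainly with halothane. All 12 controls lay at or below the floor (5.5 to 15.8, median 7.0). Halothane arrays read 49.2, 94.8 and 67.1, and isoflurane arrays 6.4, 12.9 and 45.1. All 3 halothane arrays stood above every control, but only replicate 3 of isoflurane did. It passed the filter on low values only through exposed arrays, and all controls were set to the floor and so had no spread. Its p is therefore no support for a difference and its log2 fold change against the floor, 1.26 (2.04 for halothane and 0.48 for isoflurane), depends on that floor, with 0.47 to 2.08 over the settings tried.

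Other genes with the lowest p among higher signals did not pass. Il33, an alarmin cytokine, came nearest (0.80, adjusted p = 0.0501), with controls from 43.0 to 91.8 and exposed arrays of 122.5, 132.8 and 95.8 with halothane and 83.4, 78.4 and 98.5 with isoflurane. Sult1a1, a phenol sulfotransferase, stood at 0.63 (adjusted p = 0.0632), from 0.98 with halothane and 0.28 with isoflurane. Plin2, which coats lipid droplets, had the opposite balance, 0.35 with halothane and 0.87 with isoflurane (0.61 in all, adjusted p = 0.0632), and its other probe set gave 0.08. Etfa, an electron carrier of fatty acid oxidation, lay above every control on all 6 arrays (highest control 125.4, lowest exposed array 134.0) with a value of 0.46 (adjusted p = 0.0697), where another Etfa probe set gave 0.16 and 2 of 6 arrays above every control. Bhlhe41, a transcriptional repressor of the circadian clock, had 0.43 (adjusted p = 0.0734), the same for each agent to 0.01. All 5 passed in a fit blocked on spike-in level (adjusted p from 0.0422 to 0.0454, and from 0.0106 to 0.785 over all settings).

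Vgf, a neurotrophin-induced precursor of secreted peptides, fell. Controls ran from 354.8 through 441.4 to 541.2. Halothane arrays read 260.3, 286.6 and 260.1, and isoflurane arrays 339.6, 341.8 and 284.4. Every exposed array lay below every control, with halothane the lower. The log2 fold change (M74223_at) was -0.57 ± 0.10 (SE, adjusted p = 0.0297), -0.70 with halothane and -0.44 with isoflurane. Vgf is made by neurons, and of the neuron markers 11 of 15 were lower, with a median of -0.06, without any call. That median was 0.03 on the low spike-in arrays and -0.27 on the high ones. In bulk tissue, fewer cells of a type and less RNA per cell cannot be told apart.

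Slit1 encodes a secreted repellent of growing axons and migrating neurons. Its signals (AB011530_at) were 185.0 to 234.2 in control (median 199.95), 178.1, 157.8 and 142.4 after halothane and 140.7, 162.9 and 128.5 after isoflurane. All 6 lay below the lowest control, by the narrowest margin on halothane replicate 1. The change was -0.43 ± 0.08 (SE, adjusted p = 0.0297), and another Slit1 probe set gave -0.28.

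Fut1, a fucosyltransferase that builds the H blood group sugar, had the tightest exposed values of the 9. Controls ran from 201.8 through 225.2 to 280.4, halothane arrays read 169.0, 182.4 and 180.9, and isoflurane arrays 170.0, 178.2 and 173.3. None overlapped a control. The change was -0.39 ± 0.08 (SE, adjusted p = 0.0297) for AB015637cds_s_at, and other Fut1 probe sets gave -0.07 and -0.37.

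Hspb1 encodes a small heat shock chaperone of glia, vessels and some neurons. Control signals were 525.9 to 795.6 with a median of 597.9, against 509.7, 403.2 and 512.3 after halothane and 386.0, 433.6 and 450.0 after isoflurane. The exposed arrays again lay below every control. The change was -0.43 ± 0.09 (SE, adjusted p = 0.0367) for rc_AA998683_at. Its 3 other probe sets gave -0.31, 0.37 and -0.47, so the direction was not the same on all of them, and the call was also lost without control 5 or control 12.

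Sult1c3, a sulfotransferase, was read near the floor. Its signal (L22339_g_at) was 10.8 to 52.9 in control (median 33.5), with 11 of 12 controls above the floor, against 20.0, 19.3 and 16.2 after halothane and 17.8, 14.5 and 13.9 after isoflurane. The lowest control lay below all 6 exposed arrays, so the groups overlapped. The change of -0.90 ± 0.17 (SE, adjusted p = 0.0297) depends on the floor, and shrank to -0.08 with the floor at the 40th percentile of the table.

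The next lowest p among lower signals belonged to genes that did not pass. They were Cx3cl1, a neuronal chemokine that binds a microglial receptor (-0.45, adjusted p = 0.0632), Cdc37, which hands kinases to a chaperone (-0.37, adjusted p = 0.0651), and Hes5, a target of Notch in neural progenitors and glia (-0.63, adjusted p = 0.0697). Other probe sets gave -0.19 and -0.25 for Cx3cl1, -0.17 for Cdc37 and -1.10 for Hes5. All 3 passed in a fit blocked on spike-in level (adjusted p from 0.0422 to 0.0454, and from 0.0154 to 0.486 over all settings).

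On 10 probe sets (0.135%) all 6 exposed arrays lay outside the control range on the same side. Of these, 5 are among the calls above, and the other 5 did not pass. Above control lay Etfa, Arf4, a small GTPase of the secretory pathway (0.22, adjusted p = 0.165), and Hnrnpa2b1, an RNA-binding protein (0.61, adjusted p = 0.18). Below it lay Lep, which encodes leptin (-0.37, adjusted p = 0.0983), and the beta globin Hbb. Other probe sets gave 0.37 and 0.25 for Hnrnpa2b1 and -0.05 and -0.24 for Lep.

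Red cell transcripts were lower on all 9 measured blood markers, and none passed. Hbb read 120.4 to 304.2 in control (median 156.4), 92.0, 114.0 and 74.5 after halothane and 87.4, 72.1 and 113.7 after isoflurane, a log2 fold change of -0.93 (adjusted p = 0.117). Alas2, the haem synthesis enzyme of red cells, had -0.45 (adjusted p = 0.18), where the other haem gene Alas1 rose. The mean of the 9 markers lay between -0.30 and 0.28 of the control mean on the control arrays, between -0.43 and -0.39 on the halothane arrays and between -0.71 and -0.12 on the isoflurane arrays. The labels state the saline perfusion for the controls only. What part blood left in the tissue had in any change above was not tested.

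Differences between the agents were asked in a comparison without the controls. Of 7389 probe sets 0 passed in limma (0%), with 230 at an unadjusted p under 0.05 (3.11%), and with 3 arrays a side the median 95% interval reached 0.52 to either side. Same-numbered arrays of the agents deviated together (correlations 0.222 to 0.468, against -0.349 to 0.138 for different numbers). The highest was that of replicate 3, the arrays of high spike-in level. With the replicate number as a block the count was 0 as well, with 321 at an unadjusted p under 0.05.

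For 8 of the 9 called probe sets the 95% interval of halothane minus isoflurane held 0. It ran from -0.34 to 0.55 for Alas1, from -0.20 to 0.54 for Gclm, from -0.97 to 0.79 for Igf2r and from -0.61 to 0.10 for Vgf. These intervals do not show that the agents act alike. The exception was M33648_at, at 1.56 (0.91 to 2.21), which missed the threshold over all probe sets (adjusted p = 0.36).

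The genes with the lowest p between the agents were led by others, and none passed. On the side of halothane were Phaf1, an autophagy factor (0.62), Gpx1, a glutathione peroxidase (0.71), the ribosomal gene Rpl13a (0.65) and the phosphodiesterase Pde5a (0.47). Other probe sets gave 0.16 for Gpx1, 0.10 for Rpl13a and, on the other side, -0.44 for Pde5a. On the side of isoflurane were the zinc finger gene Zfp64 (-1.07), the growth factor receptor Erbb2 (-1.03), the neuropeptide precursor Gal (-0.92) and the myelin gene Pllp (-0.56). Each had an adjusted p of 1 in limma. With the replicate block the lowest of them was Erbb2 (adjusted p = 0.0977). Erbb2 read 34.3, 33.5 and 33.0 on the isoflurane arrays and 11.2, 12.5 and 16.2, all under the floor, on the halothane arrays, within control values of 3.6 to 46.3, so the size of its difference depends on the floor. Gal read 6.9, 39.5 and 47.0 after isoflurane, 8.0, 12.7 and 15.3 after halothane and 5.3 to 17 in control, so 2 isoflurane arrays carried its difference.

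**Figure D2:**
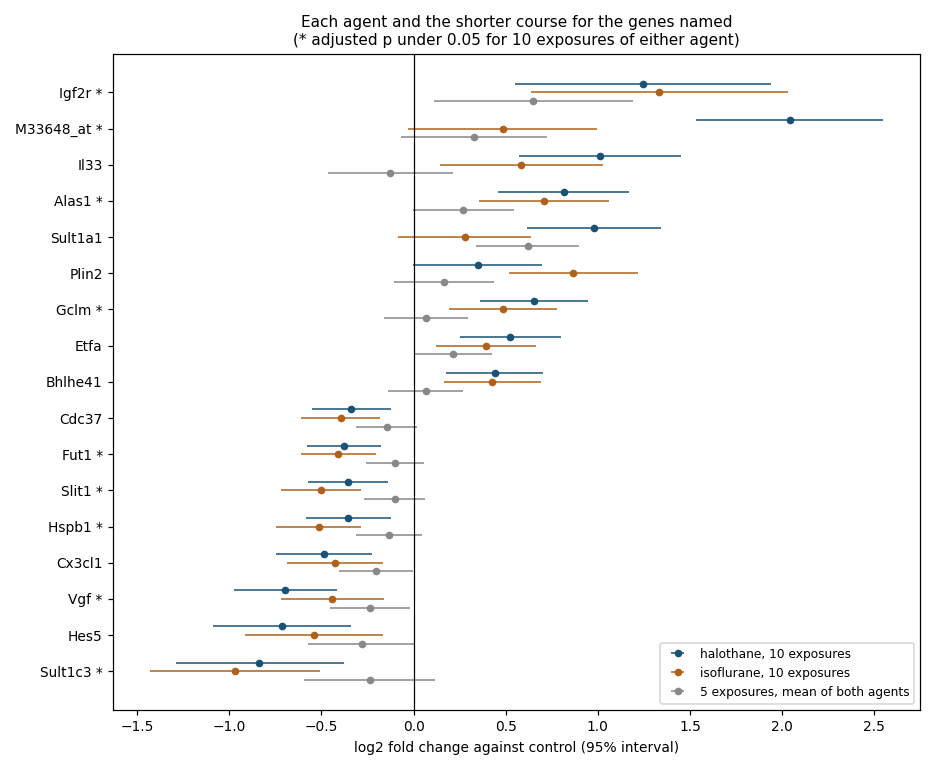
Log2 fold change against control with its 95% interval for each agent after 10 exposures and for 5 exposures of either agent, for the genes named among rises and falls; an asterisk marks those that passed for both agents together. The 3 values of a gene share the 12 controls. Halothane and isoflurane lie on the same side of 0 for all 17. The 17 were picked by the test on the mean of both agents, so this is no independent support for a shared response. Sult1a1, Plin2 and M33648_at show the widest gaps between the agents.

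Whether the longer course differed from the shorter was asked with 6 arrays against 6. Of 7389 probe sets 0 passed in limma (0%), with 336 at an unadjusted p under 0.05 (4.55%) and a median 95% interval of 0.37 to either side. Same-numbered arrays of the longer and the shorter course mostly deviated together (correlations 0.0957 to 0.52), but different-numbered ones ran from -0.371 to 0.215. The highest was again of replicate 3, for which number and spike-in level cannot be told apart. With the replicate number as a block the count was 0 as well, with 520 at an unadjusted p under 0.05. For all 9 called probe sets the interval of this difference left out 0 in the fit without the block, with unadjusted p from 0.000318 to 0.0441. That is no independent support, since the same 6 arrays with 10 exposures chose them. Against control, 5 exposures gave 0.27 for Alas1, 0.07 for Gclm, 0.65 for Igf2r, -0.24 for Vgf, -0.10 for Slit1 and -0.13 for Hspb1. Sult1a1 was the exception among named rises, with 0.62 after 5 exposures and 0.63 after 10, a difference of 0.01 (-0.31 to 0.33).

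The lowest p between the courses belonged to Il33, which stood at -0.13 after 5 exposures and was 0.92 higher after 10 (adjusted p = 0.487). Gclm (0.50), the retinoic acid carrier Crabp2 (0.85) and the valine-degrading enzyme Hibadh (0.37) followed on the higher side. Lower after 10 than after 5 exposures were the peptidase Tpp2 (-0.86), Junb (-0.55), the fatty acid hydroxylase Cyp4a1 (-0.74) and Igfals, the acid-labile carrier of insulin-like growth factors (-0.55), each with an adjusted p of at least 0.587. Other Tpp2 probe sets did not share its direction against control, with values from 0.01 to 0.31 where this one gave -0.74.

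Immediate early genes were mostly lower after 10 exposures, though none passed except with a spike-in block, with array weights or with control 7 left out. Of 26 measured, 20 were lower and 6 higher, with a median of -0.13 beside -0.02 over all 7389 probe sets, of which 46.4% were higher. Junb, a subunit of the AP-1 factor, read 96.1 to 168.0 in control (median 126.9), 103.3, 76.8 and 78.6 after halothane and 83.8, 94.5 and 101.3 after isoflurane. On 4 of the 6 arrays it lay below every control (-0.56, adjusted p = 0.0697), and another Junb probe set gave -0.54. Egr1, a zinc finger factor of firing neurons, read 830.6 to 1370.8 in control and 621.1 to 949.1 after 10 exposures (-0.49, adjusted p = 0.101), and its other probe sets gave -0.44, -0.43 and -0.22. Fos had -0.34 (adjusted p = 0.192), Egr4 -0.32 (adjusted p = 0.278) and Arc, which acts at synapses, -0.27 (adjusted p = 0.305).

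On 5 of 6 arrays the mean of the list was lower than on any control. The median was -0.28 on the low spike-in arrays, -0.04 on the high ones and -0.15 in a fit blocked on spike-in level. In that fit Junb (adjusted p = 0.0454) and Egr1 (adjusted p = 0.0464) passed. Over all settings the adjusted p ran from 0.0412 to 0.383 for Junb and from 0.0464 to 0.249 for Egr1, and array weights called Junb and Fos. Junb also passed with control 7 left out. Controls had halothane for minutes just before perfusion, and how long after the last exposure the other brains were taken is not stated in the labels. After 5 exposures the median was -0.02. The list mean was -0.30 on halothane 5-exposure replicate 3, lower than on any control, and -0.07 to 0.10 on the other arrays with 5 exposures.

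Genes secreted or used in plasticity after activity held 1 call among 20, the fall of Vgf, where 0.0677% of all probe sets fell. Of the 20, 15 were lower and the median was -0.12. The opioid precursor Pdyn (-0.28, adjusted p = 0.127) and the activin subunit Inhba (-0.36, adjusted p = 0.247) were lower, and Nptx1, a pentraxin of excitatory synapses, was higher (0.61, adjusted p = 0.161), with none passing. Of 30 neuropeptide precursors 23 were lower (median -0.13) and 0 were called.

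Promoters of Vgf and Junb are shown because they hold the core of the cAMP response element, TGACG, in capitals with any overlapping copy on the opposite strand. The RefSeq sequences (GRCr8) are the 250 bases before the start of Vgf (minus strand, chr12:25277021-25277270) and of Junb (plus strand, chr19:40080876-40081125), read 5' to 3' toward the gene.
Vgf: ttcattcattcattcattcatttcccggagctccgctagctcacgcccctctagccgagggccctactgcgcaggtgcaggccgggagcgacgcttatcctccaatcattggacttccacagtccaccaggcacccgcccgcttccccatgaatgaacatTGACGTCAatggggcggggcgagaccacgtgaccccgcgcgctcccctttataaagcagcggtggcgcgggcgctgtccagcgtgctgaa
Junb: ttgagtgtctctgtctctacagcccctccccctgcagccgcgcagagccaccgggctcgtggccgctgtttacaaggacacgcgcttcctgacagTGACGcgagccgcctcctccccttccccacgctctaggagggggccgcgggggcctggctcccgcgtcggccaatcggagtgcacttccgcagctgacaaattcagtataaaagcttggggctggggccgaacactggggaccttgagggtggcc
In Vgf a copy on each strand overlaps, 90 to 86 and 87 to 83 bases before the start. In Junb a copy on the gene's own strand lies 155 to 151 bases before it. Searched on both strands, TGACG was in 12 of the 19 immediate early genes with a promoter sequence (63.2%), in 7 of 14 of the activity-regulated genes (50%) and in 19% of all 27457 promoters. Of the 9 called probe sets 6 had a promoter sequence and 3 of these held it. They were Vgf, which fell, and Alas1 and Igf2r, which rose. A match is not a binding site, and no binding was measured.

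**Figure D3:**
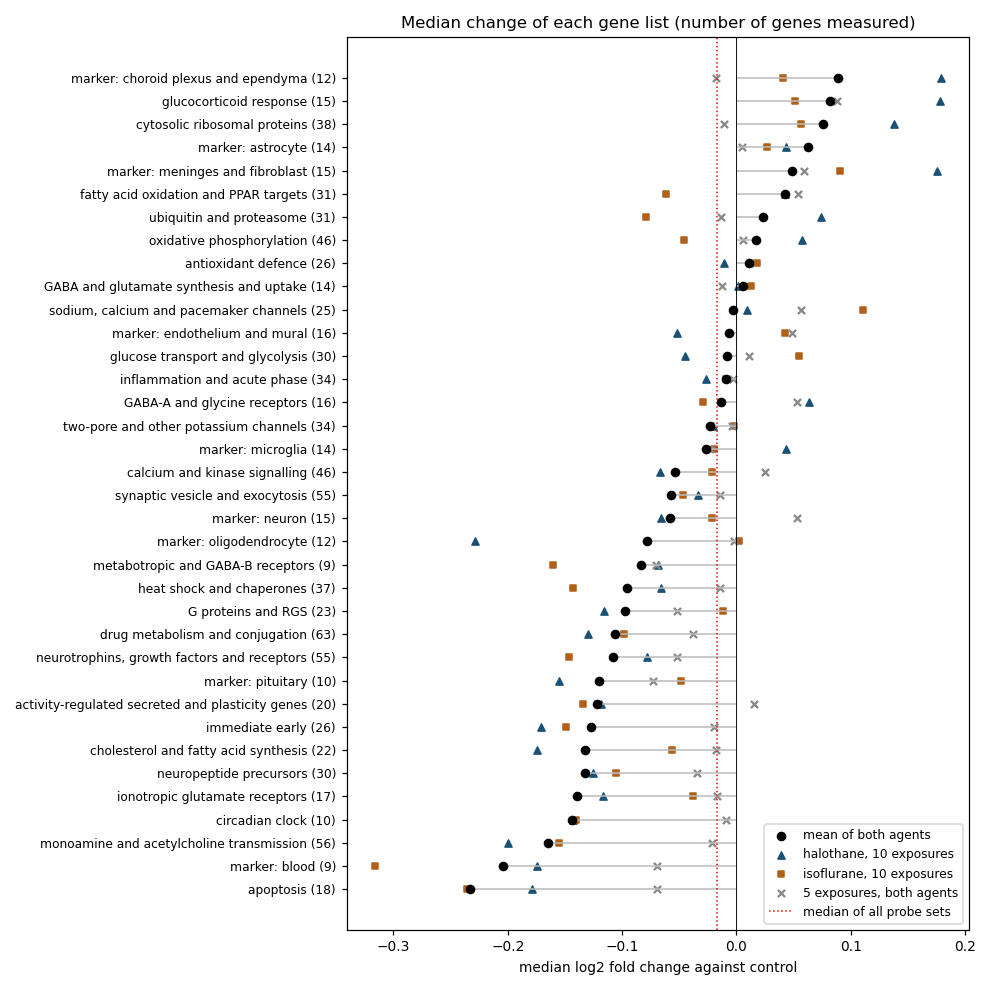
Median log2 fold change against control of each gene list after 10 exposures of either agent (black), for each agent and for 5 exposures, with the number of measured genes in brackets; the dotted line is the median of all probe sets, -0.02. The medians after 10 exposures lie between -0.23 (apoptosis) and 0.09 (choroid plexus markers), and the values share the 12 controls.

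The medians were small. Their direction held for 17 of the 36 lists in every setting in which list medians were taken. Medians were not taken under other filters, without the trend, with array weights, in the comparison's own groups or with the replicate block. Among these 17 were the immediate early, activity-regulated, monoamine and acetylcholine, neuropeptide, growth factor, drug metabolism, heat shock, apoptosis and blood lists (lower) and the ribosomal and glucocorticoid lists (higher). A median given below for a list not named here turned in at least 1 setting, except for G proteins, cholesterol and fatty acid synthesis, clock, choroid plexus, meningeal and pituitary genes.

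Targets of the anaesthetics themselves gave no call. Of 16 GABA-A and glycine receptor subunits 8 were higher and 8 lower (median -0.01, but 0.05 on low and 0.07 on high spike-in arrays). Gabra6, the subunit of cerebellar granule cells, had 0.73 (adjusted p = 0.355), with controls spread from 166.1 to 990.0, and Gabra3 had -0.52 (adjusted p = 0.126). Ionotropic glutamate receptors had a median of -0.14 over 17 genes, which was 0.09 on the low spike-in arrays, so its direction turned. Gria4, an AMPA receptor subunit, was 0.72 for each agent (adjusted p = 0.223), with exposed arrays of 66.1 to 72.8 inside the control range of 25.3 to 90.3. Of 9 metabotropic and GABA-B receptors 8 were lower, led by Grm5 (-0.83, adjusted p = 0.18). Their median of -0.08 also turned, to 0.01 on the low spike-in arrays against -0.38 on the high ones. The 34 potassium channel genes had a median of -0.02, and among them Kcnj8, a pore subunit of ATP-sensitive channels, had -0.70 (adjusted p = 0.104) and Kcnc1, a channel of fast-firing neurons, 0.56 (adjusted p = 0.128). The 25 sodium, calcium and pacemaker channel genes had a median of -0.0027.

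In monoamine and acetylcholine transmission 47 of 56 genes were lower, with a median of -0.16, and 0 passed. The lowest p belonged to Pnmt, which makes adrenaline (-0.50), the muscarinic receptor Chrm3 (-0.29) and the nicotinic subunit Chrnb2 (-0.46), each with an adjusted p of 0.18. The median was -0.21 on low and -0.15 on high spike-in arrays and -0.02 after 5 exposures. On 4 of 6 arrays the mean of the list was under that of any control, but replicate 2 of isoflurane, at 0.18, lay near the highest of them, 0.21. Of 55 synaptic vesicle genes 39 were lower (median -0.06), of 23 G protein and RGS genes 17 (median -0.10), and of 46 calcium and kinase signalling genes 28 (median -0.05), with 0 calls in each. On the low spike-in arrays these medians were 0.0021, -0.0059 and 0.05, and on the high ones -0.13, -0.25 and -0.16. Camk2d, a calmodulin-dependent kinase, was the nearest at 0.40 (adjusted p = 0.0899). The 14 genes of GABA and glutamate synthesis and uptake had a median of 0.01, 0 calls and 0 at an unadjusted p under 0.05.

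Growth factors and their receptors gave the calls of Igf2r and Vgf among 55 genes, where 0.122% of all probe sets passed. Of the 55, 36 were lower and 19 higher (median -0.11), beside 46.4% higher over all probe sets. Pdgfb, a growth factor for pericytes, had -0.91 (adjusted p = 0.105), from -0.92 with halothane and -0.91 with isoflurane.

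Lipid genes gave no call. Of 22 genes of cholesterol and fatty acid synthesis 14 were lower (median -0.13). Srebf1, the transcription factor that drives fatty acid synthesis, read 117.9 to 203.1 in control, 114.9, 106.5 and 137.9 after halothane and 64.7, 88.4 and 129.5 after isoflurane (-0.63, adjusted p = 0.108). Its target Fasn, the fatty acid synthase, had -0.44 (adjusted p = 0.196). Fatty acid oxidation genes were higher on 18 of 31 (median 0.04), but the agents stood on opposite sides, with medians of 0.04 for halothane and -0.06 for isoflurane. Cpt2 (0.45, adjusted p = 0.19) and Cpt1a (0.31, adjusted p = 0.241), which pass fatty acids into mitochondria, were above the control median on all 6 arrays, Cpt1a with 0.50 for halothane and 0.12 for isoflurane. Cyp4a1 had -0.25 with halothane and -1.19 with isoflurane (-0.72 in all, adjusted p = 0.0975), but its other probe set gave 0.24.

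Of 15 glucocorticoid-responsive genes 12 were higher, with a median of 0.08 and 0 calls. Plin2 and Sult1a1 led, and Errfi1 (0.21) and the kinase gene Sgk1 (0.32) had adjusted p of 0.549 and 0.581. The median after 5 exposures was 0.09.

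Genes of detoxification and stress gave 2 calls, the falls of Sult1c3 among 63 and of Hspb1 among 37 genes, where 0.0677% of all probe sets fell. Among 63 drug metabolism genes 41 were lower (median -0.11). Cyp2a3 had -0.83 (adjusted p = 0.198) and Cyp2d2 -0.57 (adjusted p = 0.227), both cytochrome P450 enzymes. Lists take the brightest probe set of a gene, which is not the called probe set for Alas1 and Gclm. Among 37 heat shock and chaperone genes 24 were lower (median -0.10), and the factor that switches them on, Hsf1, had -0.35 (adjusted p = 0.17). The chaperones Hsp90b1 (-0.24) and Dnajb1 (-0.28) had an adjusted p of 0.18. Of 26 antioxidant genes 15 were higher (median 0.01).

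Apoptosis genes had the lowest median of all lists, -0.23, with 13 of 18 lower, 8 of them at an unadjusted p under 0.05, and 0 called. Over all 7389 probe sets 504 were lower at that p. Bcl2l1, which protects cells from death (-0.25, adjusted p = 0.285), and Casp1 (-0.23, adjusted p = 0.314) and Bok (-0.23, adjusted p = 0.285), which promote it, were all lower, and Bnip3l, which marks mitochondria for removal, was higher (0.29, adjusted p = 0.109). The median was -0.25 on the low and -0.10 on the high spike-in arrays. On 3 of 6 arrays its mean was lower than on any control.

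Cytosolic ribosomal protein genes were higher on 31 of 38, with a median of 0.08 and 0 calls. Rpl39 (0.34, adjusted p = 0.196) and Rpl14 (0.20, adjusted p = 0.252) led. The list mean followed the spike-in level, since its highest arrays, at 0.38 and 0.26, were those of replicate 3, and in a fit blocked on that level the median was 0.09. The 46 genes of oxidative phosphorylation were higher on 25 (median 0.02), led by Ndufc2, a subunit of complex I (0.35, adjusted p = 0.109). The 31 ubiquitin and proteasome genes (median 0.02), the 30 genes of glucose transport and glycolysis (-0.01) and the 34 inflammation genes (-0.01) had 0 calls. Halothane and isoflurane medians lay on opposite sides for oxidative phosphorylation (0.06 and -0.05), ubiquitin and proteasome (0.07 and -0.08) and glycolysis (-0.04 and 0.05). Of 10 clock genes 7 were lower (median -0.14), while Bhlhe41 and Nr1d2 (0.36, adjusted p = 0.171) were higher.

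**Figure D4:**
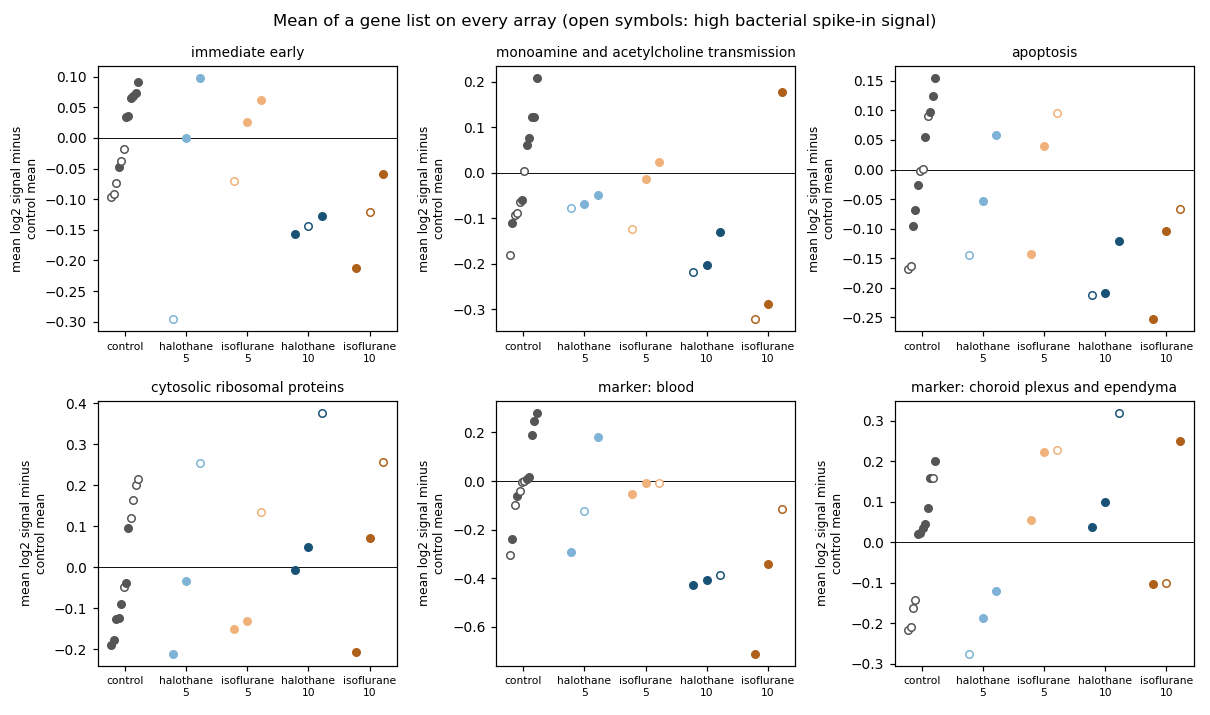
Mean log2 signal of 6 gene lists on every array, relative to the mean of the controls, with open symbols for arrays of high spike-in level. Immediate early and blood lists lie below every control on 5 of 6 arrays with 10 exposures; of the ribosomal list 2 arrays lie above every control and 1 below every control, and of the choroid plexus list 2 lie above every control.

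Markers of the cell types of the brain gave 0 calls on any list. Medians were 0.06 for 14 astrocyte, -0.08 for 12 oligodendrocyte, -0.03 for 14 microglial, -0.01 for 16 endothelial and mural, 0.05 for 15 meningeal and 0.09 for 12 choroid plexus genes. Halothane and isoflurane stood apart on the oligodendrocyte list, at -0.23 and 0.0027, with list means of -0.49 to 0.03 on the halothane arrays, -0.12 to 0.16 on the isoflurane arrays and -0.19 to 0.28 in control, so the ranges overlapped. Ttr, the main product of the choroid plexus, had 0.41 (adjusted p = 0.253), and the astrocyte water channel Aqp4 0.68 (adjusted p = 0.362). With 1 array left out the median reached -0.01 for astrocyte, 0.04 for oligodendrocyte, 0.02 for microglial and 0.03 for endothelial genes, and the neuron median of -0.06 became 0.04 without halothane 10-exposure replicate 3. The pituitary list mean reached 0.87 on replicate 2 of isoflurane against at most 0.32 in control, and Gh1, growth hormone, read 178.9 on that array against 21.1 to 105.9 in control. This is the array without which the calls number 27.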

How the data were processed

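Total RNA of whole rat brain was hybridised to 24 single-colour arrays, 1 per sample, in 5 groups taken from the labels. The values the authors deposited are linear intensities, 1 for each probe set on each array. The deposited scaling was kept; what software, target and detection calls lie behind it was not given in the sources used here. A floor of 16.5 (25th percentile of the table) was set before log2, which understates changes of dim genes. Of 8799 probe sets, 59 control probe sets were left out, and a filter for signal over the floor on 3 or more arrays kept 7389, 6018 of them with 1 symbol in the platform annotation. Limma 3.58.1 in R 4.3.3 (lmFit, eBayes with trend, two-sided, Benjamini-Hochberg over 7389) fitted all 24 arrays in 5 groups, after tests on simulated data. SE are of the moderated fit. The number of arrays limits the precision.

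Named genes were those past the threshold, filled up to 8 a direction by lowest p; at most 10 non-overlapping probe sets a direction; the 4 lowest p a direction between agents and between courses; up to 4 members a list; and genes named in an earlier analysis of these data. The comparison, lists and names were chosen with earlier results of these data known. Gene lists hold 1 probe set per gene, the brightest, and got counts and medians only. Alternatives were scalings, floors, filters, weights, blocks, spike-in levels and each array left out. Same-numbered arrays of the agents after 10 exposures deviated together (3 of 3 correlations over 0.1), as did most of those of the longer and the shorter course (11 of 12). Both comparisons are therefore also given with the number as a block.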

Additional observations from a re-analysis of the deposited data

Results flagged for a closer look

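On 3 probe sets all arrays of the agents after 10 exposures lay on opposite sides of the control mean. Zfp64 was lower than control on all 3 halothane arrays and higher on all 3 isoflurane arrays, a difference of -1.07 on the log2 scale (halothane minus isoflurane). The same held for the myelin gene Pllp (-0.56) and for Erbb2 (-1.03), whose 3 halothane arrays all lay under the floor and were set to it, so that its value depends on the floor and does not measure a level below control. In limma each of these differences had an adjusted p of 1, so none passed.

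Igfals lay above the control mean on all 6 arrays with 5 exposures and below it on all 6 with 10, a difference of -0.55 (10 minus 5 exposures), which did not pass in limma (adjusted p = 0.859). Its other probe sets gave -0.08 and -0.24 for 10 exposures against control, where this one gave -0.34.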

How the results depend on the processing

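Of the calls after 10 exposures against control, 9 as reported, quantile normalization gave 17, the floor at the 10th percentile 5 and at the 40th 14, no filter 17, array weights 72, controls 10 to 12 left out 5, the spike-in level as a block 39, low spike-in arrays only 1, high spike-in arrays only (a choice made after seeing the data) 39, and a fit on the comparison's own groups 3. Leaving out 1 array gave 0 to 27. Median centring, the strict filter and no trend stayed within 1.5 times. With the replicate number as a block the count was 28, of which 2 were among the 9. Numbers 4 to 12 occur only in controls, so this fit in effect set the exposed arrays against controls 1 to 3. Numbers were also not shown to pair exposed arrays with controls (2 of 6 correlations over 0.1).

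Between the agents and between the courses, leaving out 1 array gave 0 to 1, and high spike-in arrays, 1 per exposed group and assumed to vary like controls, gave 13 and 31. The block changed no other call. The non-overlapping 10 became 6 with median centring, 17 without controls 10 to 12, 172 on low spike-in arrays and 10 to 28 with 1 array left out; fewer arrays overlap less by construction. For the other changes the cause was not tested. Signals near the floor limit Gclm, Sult1c3 and M33648_at. Of the list medians, under the alternatives in which they were taken, 1169 stayed and 19 moved beyond the spread between replicates, mostly on spike-in subsets.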
